A study of Homo sapiens with 8 samples.

Results

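Matrix metalloproteinases (MMPs) are zinc-dependent proteases that cut collagens and other proteins of the extracellular matrix and the cell surface, and tissue inhibitors of metalloproteinases (TIMPs) are small secreted proteins that block them. The genes described are 10 of the 25435 symbols in the deposited count table: MMP1, MMP2, MMP9, MMP14, MMP15, MMP17, MMP25, TIMP1, TIMP2 and TIMP3. They were taken by symbol as one gene family. The set was chosen by symbol but with CPM values in view, since MMP1 was known to differ strongly between the study's 2 experiments and MMP2 to differ with the guides against ZRSR2. Those contrasts are therefore given for these genes as values without a test.

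Most MMPs are made as inactive proenzymes that are cut to become active. MMP14, MMP15, MMP17 and MMP25 are held at the cell membrane, whereas MMP1, MMP2 and MMP9 are secreted. MMP1 is an interstitial collagenase, MMP2 and MMP9 are gelatinases, and a complex of MMP14 with TIMP2 is the known surface activator of the MMP2 proenzyme. TIMP3 differs from the other inhibitors in binding to the matrix. In the bone marrow these proteins take part in matrix turnover and in the movement of blood cells. Message levels do not measure protease activity.

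RNA was sequenced from SET-2 cells, a single human line from an essential thrombocythemia at megakaryoblastic leukemic transformation, which carries an activating JAK2 mutation. All cells had been transduced with a PLKO5 GFP virus that carried a guide RNA. In 4 libraries the guide was against ZRSR2, a factor of minor intron splicing, and these are called knockout as in the labels. In the other 4 libraries it was non-targeting. Each genotype had guides 1 and 2, each used in experiments 1 and 2, and the replicates are numbered so that 1 and 3 carry guide 1, 2 and 4 carry guide 2, and 3 and 4 belong to experiment 2. A further ZRSR2 guide of the series design was not analysed here. If the experiment number in the titles is the biological replicate number of the protocol, experiment 1 was collected on day 20 and experiment 2 on day 25. The day cannot be told apart from anything else that differed between the collections.

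Library totals ran from 31106042 to 71521173 expected counts, with the largest in non-targeting replicate 3. Values below are CPM, counts scaled to TMM-adjusted library totals. One count was worth 0.0143 to 0.0324 CPM, and 3 counts, taken as the floor of detection, 0.0428 to 0.0971 CPM. ZRSR2 itself was at 18.7 to 29.4 CPM in knockout libraries and 37.9 to 41.1 CPM in controls, with no overlap. Its message was thus lower in the libraries with the guides but not absent. The edgeR test of knockout against non-targeting, given below, did not call ZRSR2. Of 15 megakaryocyte markers, 13 were at 1 CPM or more in every library, while PPBP stayed below 1 CPM and GP1BB was listed at 0. Nothing in the labels says that the libraries of a genotype came from separately grown cultures beyond the experiment and guide, so p-values measure the spread between these libraries.

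**Figure D1:**
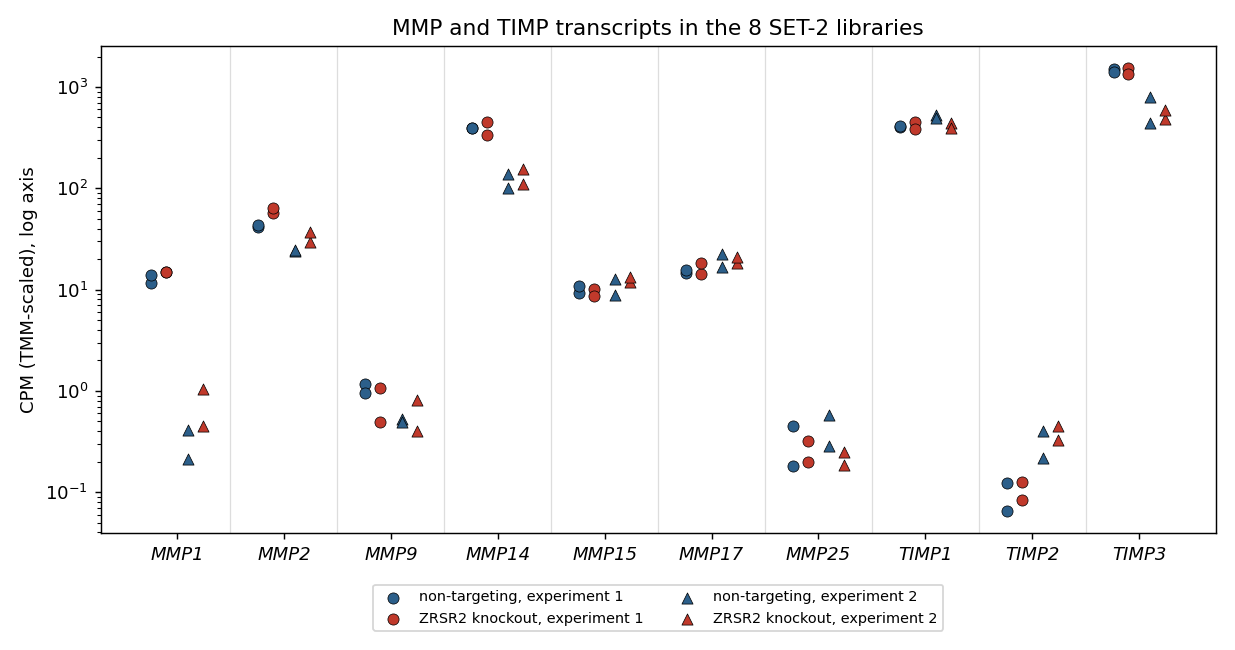
CPM of the 10 genes on a log axis, 1 point per library, circles for experiment 1 and triangles for experiment 2, blue for non-targeting and red for ZRSR2 guides. MMP1, MMP2, MMP14 and TIMP3, lower in experiment 2, and TIMP2, higher there, separate by experiment, as 56% of all fitted genes do. MMP2 and MMP1 also separate by genotype within each experiment, higher with ZRSR2 guides, as 2.46% of all fitted genes do.

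Levels of different genes were compared per kilobase of exon, using exon lengths from GENCODE 29. The inhibitors TIMP1 and TIMP3 led, at 300.5 ± 34.5 and 219 ± 104 CPM per kilobase (SD, n = 8). In experiment 1 their libraries overlapped, at 266 to 309 for TIMP1 and 292 to 334 for TIMP3. In experiment 2 every TIMP1 library, at 271 to 361, was above every TIMP3 library, at 96.0 to 172. MMP14 was the most abundant of the proteases at 69.4 ± 39.4 CPM per kilobase. MMP2 followed at 8.46 ± 3.08, MMP17 at 6.89 ± 1.14, MMP1 at 3.65 ± 3.65 and MMP15 at 2.51 ± 0.417 CPM per kilobase. In experiment 1 MMP17 and MMP1 overlapped, at 5.57 to 7.21 and 5.88 to 7.64, and in experiment 2 MMP2 and MMP17 overlapped, at 5.10 to 7.81 and 6.56 to 8.67. MMP9, MMP25 and TIMP2 closed the order at 0.316 ± 0.127, 0.0833 ± 0.0385 and 0.0551 ± 0.0368 CPM per kilobase. This order pools the experiments. In experiment 2 every MMP1 library, at 0.109 to 0.535, was below every MMP15 library, at 2.10 to 3.12, and MMP1 overlapped MMP9, at 0.174 to 0.351. MMP25 and TIMP2 overlapped in experiment 2. The known partner of MMP14 in MMP2 activation, TIMP2, had the lowest mean of the 10 messages, on 2 to 28 counts per library.

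Of the 10 genes, 9 passed the filter on low counts and were fitted, and TIMP2 did not pass. The annotation places exons of other genes over those of MMP1, MMP2, MMP9, MMP25 and TIMP2. Since the use of strand in counting is not given in the sources used here, counts of these 5 genes are uncertain where reads could be shared. For MMP1 the overlapping gene is WTAPP1, on the opposite strand, which was at 0 to 0.0324 CPM.

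Promoter sequences are shown for MMP14 and TIMP3, which were both lower in experiment 2, for TIMP1, which did not pass the threshold there, and for MMP10, the neighbour of MMP1 on the chromosome. They are RefSeq windows on GRCh38.p14 from 250 bases before to 50 bases after the gene start, 5′ to 3′ on the strand of the gene. Capitals mark matches on either strand to the GC box GGGCGG, the AP-1 motif TGANTCA, the TATA box TATAAA or the ETS-type motif AGGAAG, none of which overlap here. Windows matched for MMP14, MMP15, TIMP1 and TIMP3, and not for MMP1, MMP2, MMP9, MMP17, MMP25 and TIMP2.
MMP14, chr14:22836335-22836634, plus strand: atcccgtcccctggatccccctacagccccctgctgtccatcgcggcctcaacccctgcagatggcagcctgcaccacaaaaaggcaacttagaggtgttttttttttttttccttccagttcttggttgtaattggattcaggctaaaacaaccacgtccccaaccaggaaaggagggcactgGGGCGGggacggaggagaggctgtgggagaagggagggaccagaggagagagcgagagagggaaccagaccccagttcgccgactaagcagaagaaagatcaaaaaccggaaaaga
TIMP3, chr22:32801455-32801754, plus strand: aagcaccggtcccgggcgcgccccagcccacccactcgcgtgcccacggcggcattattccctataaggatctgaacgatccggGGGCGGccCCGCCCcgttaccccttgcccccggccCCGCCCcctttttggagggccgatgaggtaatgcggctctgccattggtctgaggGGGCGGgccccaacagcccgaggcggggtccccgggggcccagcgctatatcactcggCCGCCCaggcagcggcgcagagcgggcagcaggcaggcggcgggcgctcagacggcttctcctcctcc
TIMP1, chrX:47582186-47582485, plus strand: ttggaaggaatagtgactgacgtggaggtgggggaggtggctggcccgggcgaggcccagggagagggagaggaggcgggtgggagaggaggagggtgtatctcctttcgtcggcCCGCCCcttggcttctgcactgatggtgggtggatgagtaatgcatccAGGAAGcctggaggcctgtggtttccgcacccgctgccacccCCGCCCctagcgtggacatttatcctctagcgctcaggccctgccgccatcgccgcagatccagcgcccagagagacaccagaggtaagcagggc
MMP10, chr11:102780579-102780878, minus strand: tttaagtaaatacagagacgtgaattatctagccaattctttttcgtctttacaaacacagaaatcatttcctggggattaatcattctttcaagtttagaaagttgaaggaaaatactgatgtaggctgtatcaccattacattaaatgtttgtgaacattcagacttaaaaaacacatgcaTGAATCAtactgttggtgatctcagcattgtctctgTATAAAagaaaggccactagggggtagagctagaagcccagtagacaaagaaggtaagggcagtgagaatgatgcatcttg

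The MMP14 window held 1 GC box, TIMP3 held 5, TIMP1 held 2 and MMP15, which is not printed, held 5. TIMP1 also had 1 ETS-type match, 87 bases before the start. No AP-1 or TATA letters were found in these 4 windows. The MMP10 window held no GC box, an AP-1 match 67 bases before the start and a TATA box 31 bases before it. Among 35116 windows of the same length, 45% held a GC box, 7.71% an AP-1 match, 11.5% a TATA box and 33.6% the ETS-type motif. These are matches of letters and not measured binding.

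Experiment 2 was compared with experiment 1 to see how the family varied between the collections. Both genotypes were averaged in a fit with 4 cells of genotype by experiment. MMP1, whose contrast was known when the genes were chosen, was at 14.9 and 15.0 CPM in knockout replicates 1 and 2 and at 11.6 and 13.8 CPM in non-targeting replicates 1 and 2. In experiment 2 it was at 0.451 and 1.05 CPM in knockout replicates 3 and 4 and at 0.214 and 0.412 CPM in non-targeting replicates 3 and 4. The experiments did not overlap, which held for 56% of all fitted genes, and the fitted log2 difference was −4.88 (SE 0.24), which is given as a description. The experiment 2 values rest on 15 to 45 counts per library, against 358 to 710 in experiment 1. In bulk RNA, fewer cells with a message and less message per cell cannot be told apart.

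MMP14, the membrane-anchored collagenase, fell between the experiments. It was at 451 and 339 CPM in knockout replicates 1 and 2 and at 391 and 389.6 CPM in the controls of experiment 1. In experiment 2 it was at 109 and 154 CPM in knockout replicates 3 and 4 and at 101 and 138 CPM in the controls. Its log2 fold change was −1.65 (SE 0.14, adjusted p = 4.95e-06), and the experiments did not overlap.

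TIMP3, the matrix-bound inhibitor, fell as well. It was at 1537 and 1346 CPM in the knockout libraries and 1489 and 1400.1 CPM in the controls of experiment 1, and at 479, 592, 442 and 792 CPM in knockout replicates 3 and 4 and non-targeting replicates 3 and 4. Its log2 fold change was −1.33 (SE 0.15, adjusted p = 3.68e-05). Every experiment 2 library lay below every experiment 1 library, with non-targeting replicate 4 the nearest.

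MMP2, the gelatinase whose genotype contrast was known when the genes were chosen, was tested here on the other contrast. It fell from 51.4 ± 10.8 to 28.8 ± 5.98 CPM (SD, n = 4 each), a log2 fold change of −0.83 (SE 0.09, adjusted p = 3.1e-05). Its libraries ran from 41.1 to 63.9 CPM in experiment 1 and from 24.1 to 37.0 CPM in experiment 2. Across the 8 fits that left out 1 library, the log2 fold changes were −1.78 to −1.53 for MMP14, −1.57 to −1.15 for TIMP3 and −0.92 to −0.75 for MMP2, and the call held in 8 of 8 for each.

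MMP17, a membrane protease anchored by a lipid, rose from 15.7 ± 1.89 to 19.6 ± 2.54 CPM (SD, n = 4 each). Its log2 fold change was 0.32 (SE 0.12, adjusted p = 0.0453), and the libraries of the experiments overlapped at 14.3 to 18.5 and 16.8 to 22.2 CPM. The call was lost without knockout replicate 1, knockout replicate 4 or non-targeting replicates 1, 2 or 3, with adjusted p-values up to 0.166, and without non-targeting replicate 3 the log2 fold change was 0.21.

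The remaining 4 fitted genes did not pass the threshold. MMP15, another membrane-type protease, was at 9.67 ± 0.929 and 11.7 ± 1.92 CPM in experiments 1 and 2 (SD, n = 4 each), with an adjusted p of 0.0937. TIMP1, which blocks many secreted MMPs, was at 413 ± 27.5 and 464 ± 58.7 CPM with an adjusted p of 0.0771. MMP9, the second gelatinase, was at 0.916 ± 0.300 and 0.562 ± 0.180 CPM with an adjusted p of 0.0945, on 18 to 38 counts per library. MMP25 was at 0.288 ± 0.126 and 0.324 ± 0.173 CPM with an adjusted p of 0.927, on 6 to 21 counts. Leaving out 1 library brought MMP9 past the threshold without knockout replicate 2 or 4, MMP15 without non-targeting replicate 4 and TIMP1 without knockout replicate 1, with adjusted p-values of 0.0312, 0.0387, 0.0144 and 0.0398.

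TIMP2, which was not fitted, had 3, 6, 2 and 4 counts in knockout replicates 1 and 2 and non-targeting replicates 1 and 2. In experiment 2 it had 20, 14, 28 and 8 counts in the same order. Over the summed counts the level was 3.53 times higher in experiment 2, with an exact 95% interval of 2.00 to 6.64 that covers counting error only. TIMP2 passed the low-count filter in 5 of the 8 fits that left out 1 library and was called higher in experiment 2 in each of the 5; since it passes through experiment 2, where it is high, this is a description.

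**Figure D2:**
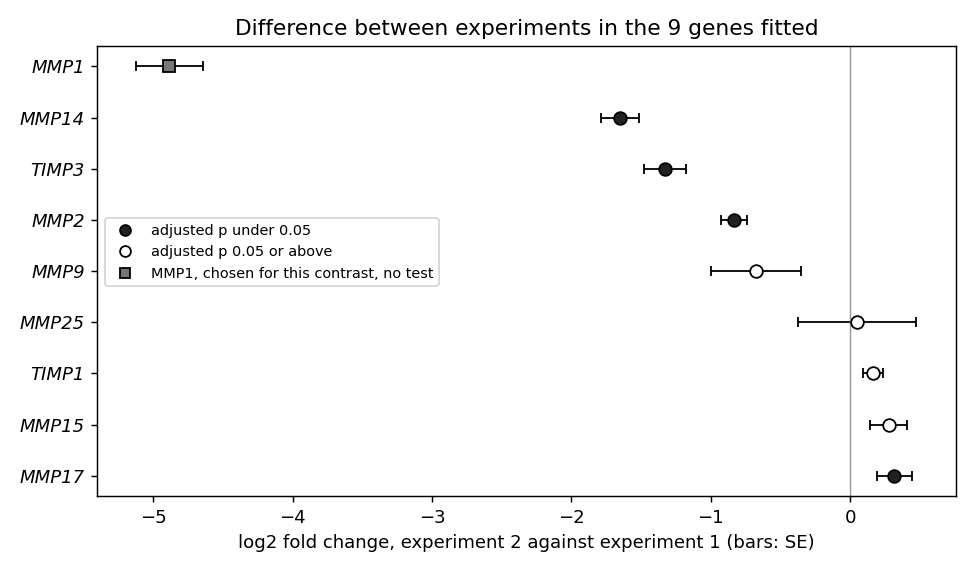
log2 fold change of experiment 2 against experiment 1 for the 9 fitted genes, with bars of 1 SE; filled circles passed the threshold, open circles did not, and the grey square is MMP1, which was not tested. MMP1, MMP14, TIMP3 and MMP2 lie below 0, and MMP17 is the filled point above it.

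Among the 8 genes tested on this contrast, 3 were called lower and 1 higher. Over all 14898 genes fitted, 58.2% were called, 28.6% lower and 29.6% higher, so the share of the family called was near that of all genes. The median log2 fold change of the 8 was −0.31, against 0.00349 over all genes. The count of genes called was 3 to 6 in the fits that left out 1 library and 5 without a low-count filter, where TIMP2 was among those called. Summed markers of several other cell types also differed between the experiments. The 10 neutrophil markers summed to 13.9 to 16.1 CPM in experiment 1 and 44.2 to 61.2 CPM in experiment 2, nearly all of it CSF3R at 11.7 to 14.3 and 41.6 to 58.0 CPM. MPO and ELANE were below 1 CPM in every library, and CTSG went the other way, from 0.530 to 1.01 CPM down to 0.0901 to 0.234 CPM. The 6 lymphocyte markers summed to 10.5 to 11.8 and 32.9 to 51.6 CPM, nearly all of it CD79A. The 10 fibroblast markers summed to 9.97 to 11.4 and 18.1 to 21.4 CPM, with COL1A1, DCN and PDGFRA below 1 CPM and FAP listed at 0. Most of that difference was THY1, at 2.07 to 2.82 and 10.03 to 13 CPM, with PDGFRB and COL1A2, while COL3A1 was lower in experiment 2, at 2.29 to 3.14 and 0.143 to 0.539 CPM, and LUM at 1.23 to 2.36 and 0.114 to 0.797 CPM. The 10 monocyte and macrophage markers summed to 592 to 656 and 673 to 883 CPM, with CD14 and CSF1R below 1 CPM. The 12 erythroid markers summed to 1505 to 1655 and 1689.9 to 2419 CPM. Sums of the 15 megakaryocyte markers, at 3522 to 3773 and 3694 to 4452 CPM, overlapped between the experiments. The 5 epithelial markers, at 46.7 to 52.3 and 39.8 to 55.3 CPM, and the 5 endothelial markers, at 176 to 195 and 151 to 209 CPM, also overlapped. The part of these markers in the changes above was not tested.

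The rest of the family had few fitted members. Of 18 further symbols, 7 were listed at 0 in all 8 libraries, among them MMP7, MMP8, MMP13 and TIMP4, 6 had counts and were not fitted, and 5 were fitted. MMP11, stromelysin 3, rose from 0.783 ± 0.181 to 1.91 ± 0.273 CPM (SD, n = 4 each; log2 fold change 1.29, SE 0.23, adjusted p = 7.57e-04). MMP10, stromelysin 2, and 3 other genes next to MMP1 were singled out after their values were seen. MMP10 had 26 to 29 counts in each experiment 1 library and 0 to 2 in each experiment 2 library. Its summed level was 36.3 times higher in experiment 1 (exact 95% interval 13.8 to 136, counting error only). It passed the low-count filter only through experiment 1, so its values are given as a description, with no test. The same ratio for MMP1 was 28.6 (23.2 to 35.5). MMP12, beyond MMP3 on the other side of MMP1, had 2 to 7 counts in experiment 1 libraries and 0 to 1 in experiment 2. The nearest fitted genes outside this row of MMPs did not share the difference in size: TMEM123 had a log2 fold change of 0.19 (adjusted p = 0.140) and DCUN1D5 fell by 0.40 (adjusted p = 0.00152).

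Related proteases and their partners changed in both directions. Of 16 fitted ADAM and ADAMTS proteases, 6 rose and 6 fell, with a median log2 fold change of −0.12. ADAM8, a leukocyte surface protease, rose from 46.6 ± 4.82 to 147 ± 21.4 CPM (SD, n = 4 each; log2 fold change 1.66, SE 0.10). ADAM28 and ADAMTS14, a procollagen peptidase, rose by 0.78 and 0.76 on the log2 scale. The aggrecanases ADAMTS5 and ADAMTS4 fell by 2.67 and 0.98, and ADAMTS1 fell from 109 ± 10.4 to 59.0 ± 7.84 CPM. ADAMTS5 rested on 11 to 34 counts per library in experiment 2, against 83 to 118 in experiment 1. It stands among the 6 that fell, and its values are a description. Adjusted p-values of the other genes named here ran up to 0.00413.

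Of 14 fitted activators and surface partners, 4 rose and 4 fell, with a median of −0.10. LRP1, an endocytic receptor that clears proteases bound to inhibitors, rose from 15.6 ± 2.40 to 72.6 ± 11.9 CPM (log2 fold change 2.22, SE 0.13, adjusted p = 8.93e-07). PCSK6, a proprotein convertase, rose from 13.2 ± 2.07 to 53.2 ± 15.3 CPM (1.98, SE 0.14, adjusted p = 1.82e-06), and SPOCK2 rose by 0.71. The protease trap A2M fell by 1.44, CD44, a docking receptor for MMPs, by 0.40 and PCSK7 by 0.26. FURIN, the convertase that activates membrane-type MMPs, was at 337 ± 11.6 and 339 ± 31.0 CPM (adjusted p = 0.923), and RECK, a membrane inhibitor of MMPs, at 5.72 ± 0.774 and 5.45 ± 0.579 CPM (adjusted p = 0.668). FURIN and RECK were named after their values were seen.

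Of 9 fitted genes of the plasminogen system, which forms plasmin, an activator of several MMPs, 4 rose and 4 fell, with a median of 0.10. SERPINB2, an inhibitor of the urokinase activator, was at 3.27 ± 0.576 CPM in experiment 1 and rested on 10 summed counts in experiment 2. The ratio of its summed levels was 62.6 (exact 95% interval 33.8 to 131). It passed the low-count filter only through experiment 1 and stands among the 4 that fell, so its values are a description. The urokinase receptor PLAUR fell from 42.2 ± 4.48 to 32.0 ± 2.60 CPM (SD, n = 4 each; log2 fold change −0.40, SE 0.10, adjusted p = 0.00421). SERPINF2, S100A10 and PLGRKT rose by 1.49, 0.92 and 0.27.

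All 25 listed AP-1, ETS and other transcription factors were fitted, and 7 rose and 11 fell, with a median of −0.14. FOSL2 fell from 78.0 ± 11.5 to 32.1 ± 8.10 CPM (log2 fold change −1.29, SE 0.16), FOSL1 from 71.5 ± 4.30 to 34.6 ± 3.33 CPM (−1.05, SE 0.09) and BATF from 11.9 ± 0.544 to 6.21 ± 0.349 CPM (−0.93, SE 0.11). These 3 belong to the AP-1 group. FOS of the same group rose from 11 ± 3.95 to 18.0 ± 3.24 CPM (0.72, SE 0.24, adjusted p = 0.0248), and EGR1 and ETS1 rose by 0.89 and 0.83. Not called were 4 of 16 ADAM and ADAMTS proteases and 6 of 14 activators and partners. The same was true of 1 of 9 plasminogen genes and 7 of 25 factors. Over all genes 58.2% were called, 29.6% higher and 28.6% lower, and these 4 lists were not tested as sets.

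**Figure D3:**
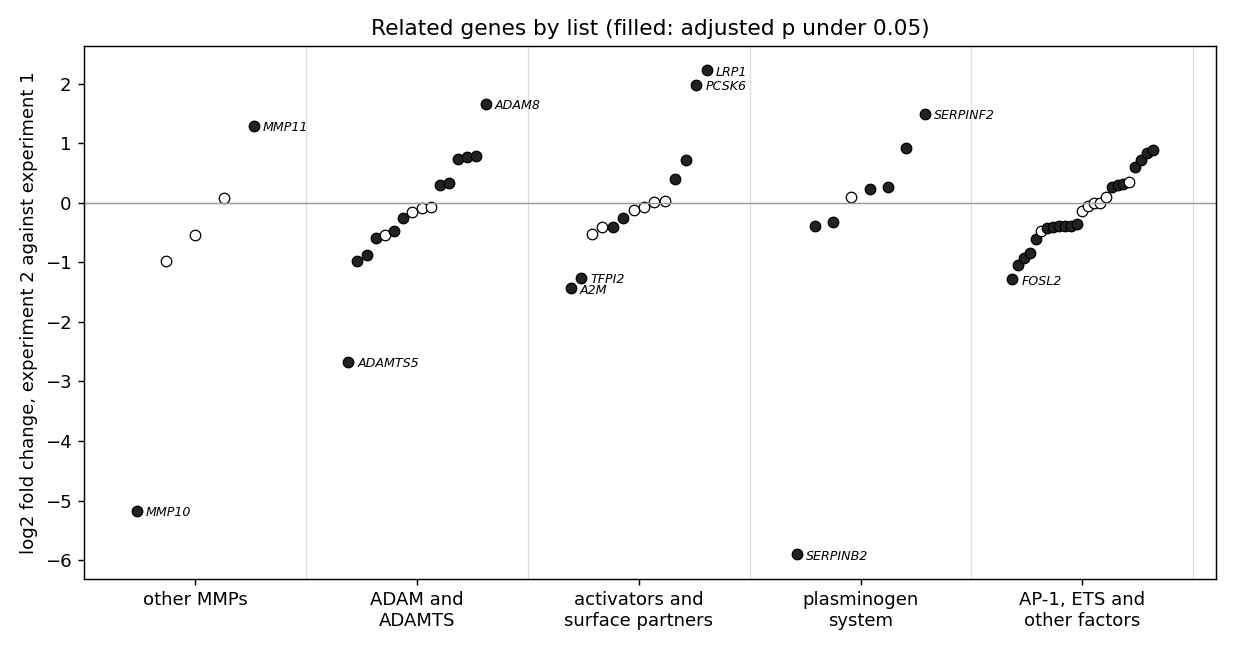
log2 fold change of experiment 2 against experiment 1 for the fitted genes of the 5 lists without 1 of the plasminogen system, ordered by value within a list; filled points passed the threshold, and plotted genes beyond 1.2 in size are named. SERPINB2 and MMP10 stand lowest, and their plotted values depend on the prior count because experiment 2 holds few counts for them; both passed the low-count filter only through experiment 1.

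Knockout was compared with non-targeting to see whether the family changed with loss of ZRSR2. MMP2 was the gene chosen for this contrast and is described without a test. In experiment 1 it was at 57.0 and 63.9 CPM with ZRSR2 guides 1 and 2 and at 41.1 and 43.7 CPM with non-targeting guides 1 and 2. In experiment 2 it was at 29.3 and 37.0 CPM with ZRSR2 guides 1 and 2 and at 24.1 and 24.6 CPM with the non-targeting guides. Within each experiment both ZRSR2 libraries lay above both controls. Across experiments the genotypes overlapped, at 29.3 to 63.9 and 24.1 to 43.7 CPM, as they did in all but 0.678% of fitted genes, of which 0.302% lay higher and 0.376% lower. A separation in the same upward direction in both experiments was seen in 367 of 14898 fitted genes, or 2.46%, and the downward one in 3.26%, which makes 5.73% in all. MMP1 was also among the 367. Its knockout libraries were at 14.9 and 15.0 CPM against 11.6 and 13.8 CPM in experiment 1. In experiment 2 they were at 0.451 and 1.05 CPM against 0.214 and 0.412 CPM, on few counts. The MMP2 log2 difference was 0.51 (SE 0.13) within experiment 1 and 0.44 (SE 0.13) within experiment 2. It was 0.26 in experiment 2 without knockout replicate 4. Over all libraries it was 0.49 (SE 0.30) with genotype alone and 0.48 (SE 0.09) with the experiment as a block.

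The size of the MMP2 difference was then compared between experiments. This comparison is built from the differences within each experiment, with which MMP2 was chosen, so it is a description with no test. The difference of the log2 effects was −0.07 (SE 0.18). By guide, with the experiment as a block, MMP2 differed from the controls by 0.35 (SE 0.10) for ZRSR2 guide 1 and by 0.60 (SE 0.10) for guide 2, again as a description. ZRSR2 stood at 28.9 ± 0.792 CPM with guide 1 and 20.8 ± 2.99 CPM with guide 2 (SD, n = 2 each). For guide 2 against the controls, the ZRSR2 log2 fold change was −0.92 (adjusted p = 1) without the block and −0.93 (SE 0.12, adjusted p = 0.0118 in edgeR) with it. For guide 1 it was −0.45 with the block (SE 0.12, adjusted p = 0.999 in edgeR) and was not called. The 2 non-targeting guides differed in MMP2 by 0.06 (SE 0.12) with the same block, also as a description.

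**Figure D4:**
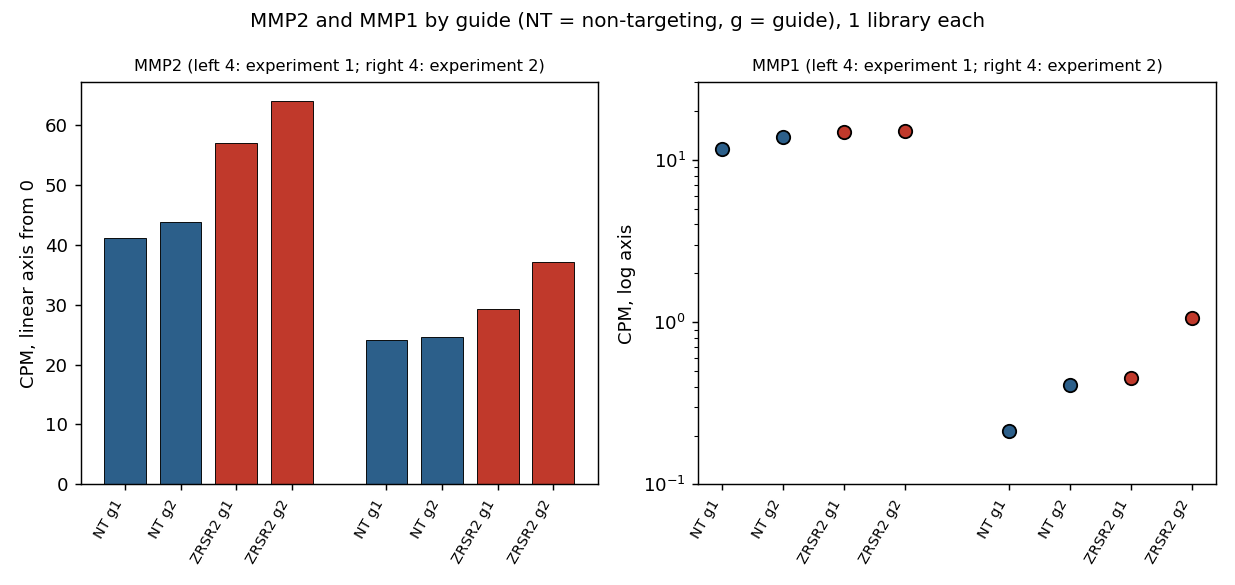
MMP2 on a linear axis from 0 and MMP1 on a log axis, in CPM, 1 bar or point per library, by guide within experiment 1 (left 4) and experiment 2 (right 4). MMP2 is highest with ZRSR2 guide 2 in both experiments, at 63.9 and 37.0 CPM.

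None of the 8 other fitted genes passed the threshold for knockout against non-targeting in edgeR, with the genotype alone or with the block, and none of the 8 reached an unadjusted 0.05. DESeq2 with or without the block also called 0 of the 8. Over all genes the edgeR test called 0 of 14898, or 0%, while 89 reached an unadjusted 0.05 with genotype alone and 690 in the blocked fit. ZRSR2 itself was thus not called, at a log2 fold change of −0.67 (SE 0.13, adjusted p = 0.275) with the block. With the block, log2 fold changes were 0.51 (SE 0.24) for MMP1, 0.08 (SE 0.13) for MMP14, 0.07 (SE 0.13) for MMP15 and 0.06 (SE 0.12) for MMP17. They were −0.13 (SE 0.32) for MMP9, −0.60 (SE 0.40) for MMP25, −0.12 (SE 0.08) for TIMP1 and −0.10 (SE 0.14) for TIMP3. The median of the 8 was −0.02, against 0.00354 over all genes. MMP9 and MMP25 rested on 6 to 38 counts per library.

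Among the fitted genes other than MMP2, MMP1 and TIMP1 had the smallest unadjusted p-values for a difference of the knockout effect between experiments. Neither passed after adjustment. For MMP1 the knockout effect was 0.24 (SE 0.25) in experiment 1 and 1.37 (SE 0.43) in experiment 2 on the log2 scale, a difference of 1.13 (SE 0.50) with an unadjusted p of 0.0452 and an adjusted p of 1. The experiment 2 effect alone had an unadjusted p of 0.00916 and an adjusted p of 0.998. It rests on 20 and 45 counts against 15 and 15, and it was 0.64 without knockout replicate 4. Without a low-count filter its adjusted p was 0.0164, while it was 0.415 to 1 in the fits that left out 1 library.

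For TIMP1 the effect was 0.05 (SE 0.10) in experiment 1, where the knockout libraries at 388 and 451 CPM spanned the controls at 399.6 and 413 CPM. In experiment 2 the knockout libraries at 396 and 437 CPM lay below the controls at 496 and 526 CPM, an effect of −0.30 (SE 0.10). The difference of the effects was −0.34 (SE 0.14), with an unadjusted p of 0.0352 and an adjusted p of 1. The test of this difference called 0 of all 14898 genes, or 0%, with 248 at an unadjusted p under 0.05. The 2 libraries with ZRSR2 guide 2 were the lowest of the 8 for TIMP1, at 388 and 396 CPM. Non-targeting replicate 1 was close above them, at 399.6 CPM. TIMP1 was not called in edgeR for guide 2 against the controls, with an unadjusted p of 0.187, or 0.0573 with the block. This order was singled out after the values were seen, and its share over all genes was not counted.

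**Figure D5:**
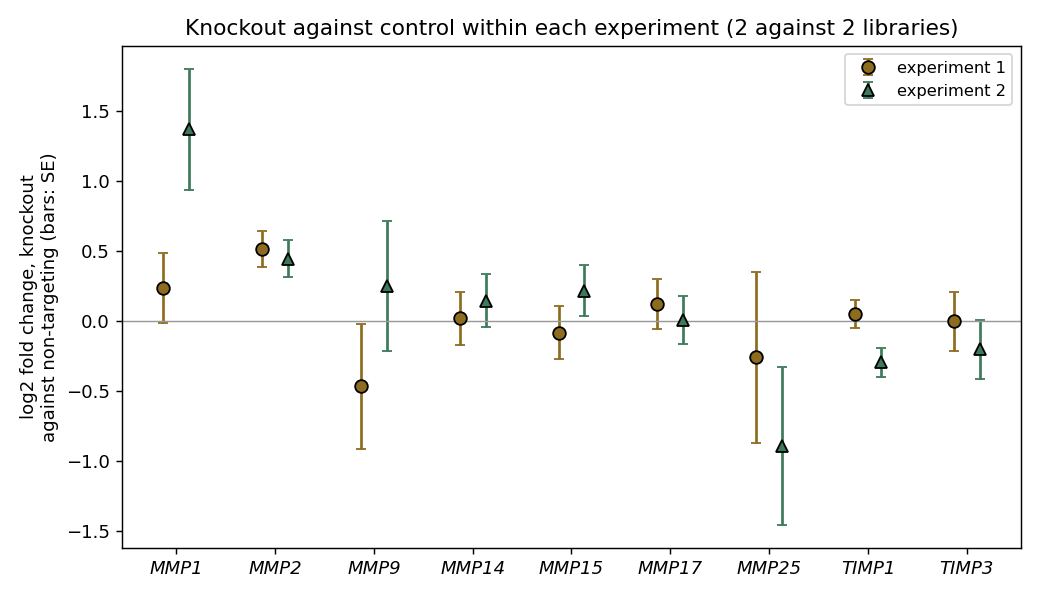
log2 fold change of knockout against non-targeting within experiment 1 (circles) and experiment 2 (triangles) for the 9 fitted genes, with bars of 1 SE. MMP2 lies at 0.51 and 0.44, MMP1 at 0.24 and 1.37 and TIMP1 at 0.05 and −0.30.

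In the wider lists no gene passed the threshold for knockout against non-targeting with genotype alone or with the block. Unadjusted p-values below 0.05 in the blocked fit belonged to 0 of 5 other MMPs, 1 of 16 ADAM and ADAMTS proteases and 1 of 14 activators and partners. They also belonged to 1 of 9 plasminogen genes and 2 of 25 transcription factors. Over all genes the count in the same fit was 690 of 14898, and the lists were not tested as sets.

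Genes whose levels followed MMP1 and MMP2 most closely were found by Pearson correlation of log2 CPM over the 8 libraries, among 13161 other genes with a mean of at least 1 CPM. The values are descriptions, since the libraries share an experiment, and no p is given. For MMP1 the closest were C21orf67, TIMM10B and HGSNAT, each at r = 0.997, and 1018 genes exceeded 0.95. After each experiment's mean was subtracted, they were ANKH at 0.989, MOAP1 at 0.980 and RNF144B at 0.975. For MMP2 the closest were ZNF594 at 0.979, SLC38A1 at 0.975 and LOC642852 at 0.972, and 42 genes exceeded 0.95. After subtraction the genes nearest to MMP2 were the non-coding LINC-PINT at 0.986, the transglutaminase TGM1 at 0.982 and KIAA0556 at 0.955. Their mean levels were higher with ZRSR2 guides than with non-targeting guides in both experiments. Since MMP2 was chosen with its ZRSR2 guide difference known, this direction follows largely from picking genes that resemble it. LINC-PINT was at 1.68 against 0.864 CPM in experiment 1 and 2.59 against 1.49 CPM in experiment 2. TGM1 was at 7.0 against 1.97 and 8.12 against 2.13 CPM.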

How the data were processed

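The authors deposited 1 table of RSEM expected counts, with a row per gene symbol. Per the submitters' processing notes, cutadapt 1.11, RSEM 1.2.30 and the build hg19 were used. Aligner, annotation and strand setting are not given in the sources used here. Per the labels' protocols, libraries were made from total RNA with a Kapa mRNA kit. Columns were matched to samples by the library number in the titles, and 0 columns belonged to other samples. The expected counts were whole numbers, and rounding changed 0 values. The 10 genes, the lists, the motifs and the tests were chosen with earlier results of these data known.

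Comparisons used the quasi-likelihood F test of edgeR (edgeR 4.0.16, R 4.3.3) with TMM factors, filterByExpr on genotype and Benjamini-Hochberg adjustment over the 14898 genes fitted, at a threshold of 0.05. Standard errors come from the F statistic, and log2 CPM used a prior count of 2. Knockout was fitted with genotype alone, experiments in 4 cells of genotype by experiment, and guides as 4 guides. The experiment number pairs the samples: deviations from genotype means correlated at 0.678 to 0.846 within an experiment and −0.816 to −0.709 between experiments, and a blocked value is printed where it alters a call or where genotype or guide is described. The fits were tested on simulated data.

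Alternatives were DESeq2 1.42.0, its size factors in edgeR, other count filters and leaving out each library. From each list, up to 3 genes per direction of largest change between experiments, past the threshold and at 1 CPM or more on average, were named, and 1 gene that met this rule is not reported here. Exon lengths and overlaps come from GENCODE 29 on GRCh38, used for lengths and names only, and gene order and promoter windows from RefSeq on GRCh38.p14. Intervals and floors cover counting error only. Protein sequences were not used here.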

Additional observations from a re-analysis of the deposited data

Results flagged for a closer look

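The total of non-targeting replicate 3, 71521173 expected counts, stood apart from the other controls, at 31106042 to 36544665. It was the 1 group set apart among 44 groups of 4 libraries, which covered the 10 genes and the totals by genotype and by experiment, where chance sets apart about 1 in 20. None of the 10 genes was set apart in CPM. A genotype group holds 2 libraries of each experiment, however. For genes that differ strongly between the experiments, 1 library can hardly stand apart there, and the 1 in 20 does not apply. Without non-targeting replicate 3, MMP17 was no longer called between the experiments.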

How the results depend on the processing

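Alternatives were computed for the values given in the text. The calls of MMP14, TIMP3 and MMP2 between the experiments, and the absence of a call among the 8 genes for knockout against non-targeting, held under every alternative run. The experiment as a block changed no call of the 10 genes on the contrasts tested. It took the guide 2 comparison over all genes from 0 to 10 calls, ZRSR2 among them. DESeq2 called 4 genes for knockout against non-targeting, and 31 with the block. Within experiments 1 and 2 it called 5 and 13, and 40 and 116 were called in edgeR without a low-count filter. That filter setting called 5 for the difference between experiments. For guides, DESeq2 called 2 for guide 2. Its blocked form, a choice made after seeing the data, called 4 for guide 1, 39 for guide 2 and 2 between the ZRSR2 guides. The cause was not tested.

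Leaving out 1 library gave 0 to 2 calls within experiment 1, with 2 without knockout replicate 1, and 0 to 154 within experiment 2, with 154 without non-targeting replicate 3. In the blocked fit, likewise added after seeing the data, knockout against non-targeting had 12 calls without non-targeting replicate 3 and 1 without knockout replicate 3. Uncalled log2 fold changes for knockout changed sign with genotype alone, where leaving out 1 library leaves the genotypes unequal in experiment. Values ran from −0.24 to 0.97 for MMP1, −0.44 to 0.089 for MMP9 and −0.34 to 0.33 for MMP14. They ran from −0.020 to 0.19 for MMP15, −0.031 to 0.20 for MMP17 and −0.35 to 0.17 for TIMP3. With the block MMP1 kept its sign, at 0.29 to 0.72. Leaving out 1 library with the block turned MMP9 to 0.15 and 0.018, MMP14 to −0.039 and −0.016, MMP15 to −0.040, MMP17 to −0.026 and TIMP3 to 0.12. Between experiments MMP25 ran from −0.21 to 0.45. The difference of the MMP2 effects ran from −0.25 to 0.088, MMP2 between the non-targeting guides from −0.39 to 0.51, and TIMP1 within experiment 1 from −0.061 to 0.16. By guide and without the block, MMP2 ran from −0.19 to 0.78 for guide 1, from 0.15 to 0.94 for guide 2 and from −0.22 to 0.79 between them, since leaving out 1 library leaves the guides unequal in experiment. By Spearman's rho, 0 of the 3 genes most like MMP1 or MMP2 over all libraries were the same, and after subtracting experiment means 1 of 3 for MMP1 and 0 of 3 for MMP2 were. MMP9, MMP25, TIMP2 and, in experiment 2, MMP1 rest on few counts.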
